A study of Homo sapiens with 24 samples.

Results

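The response of the leukaemia line MV-4-11 to the BET inhibitor ABBV-075 was followed in 4 libraries of poly-A selected RNA, 2 from cells given ABBV-075 at 100 nM and 2 from cells given DMSO, all sampled at 24 h. The genes described are those with an FPKM of 1 or more in at least 2 of these 4 libraries, which left 12314 of the 30373 genes and transcripts in the deposited table, 11469 of them matched to a gene symbol. FPKM counts sequenced fragments per kilobase of transcript, scaled to the total of the library, so levels can be compared between genes, but the read depth of a library is not known from it. The 4 libraries belong to a series of 24, in which MV-4-11, SKM-1 and Kasumi-1 (acute myeloid leukaemia) and NCI-H1299 (lung cancer) each received DMSO, ABBV-075 at 100 nM or ABBV-744 at 200 nM, with 2 libraries for each of the 12 groups. At the edge of the filter, CD300LB was just inside at 0.248 and 0.300 FPKM with ABBV-075 and 1.0006 and 1.16 FPKM with DMSO, and KATNAL1 was just outside at 0.586 and 0.799 FPKM with ABBV-075 and 1.26 and 0.999 FPKM with DMSO. Nothing in the labels tells whether paired libraries came from separate cultures, so each p-value reflects the spread among the libraries alone, and that spread may be technical.

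ABBV-075, also called mivebresib, binds the bromodomains of the BET proteins BRD2, BRD3 and their relatives, which read acetylated histones and recruit the elongation kinase P-TEFb to active genes. MV-4-11 is a myelomonocytic line that grows on a fusion of KMT2A (MLL) with AFF1 and on FLT3 with an internal tandem duplication. The MLL fusion keeps genes such as HOXA9, MEIS1 and MYC active, and the line carries many genes of immature monocytes. Every library comes from this 1 line, and the DMSO cells carry both lesions too.

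The libraries held markers of the labelled kind of cell. All 12 markers of an MLL-rearranged myelomonocytic line passed the filter, with FLT3 at 130.4 and 125 FPKM with ABBV-075, against 165 and 141 FPKM with DMSO, and SPI1, the transcription factor of the myeloid lineage, at 74.2 and 78.8 FPKM with ABBV-075, against 93.1 and 119.8 FPKM with DMSO. ITGAM, one of the 12, passed only through the ABBV-075 libraries. Of the 12, 9 also passed the filter in SKM-1 and in Kasumi-1, so these markers do not tell MV-4-11 from those lines. None of 8 T lymphoid markers passed, and their summed level was 0.442 and 0.467 FPKM with ABBV-075, against 0.601 and 0.425 FPKM with DMSO. Of 12 B lymphoid, 14 erythroid and megakaryocytic, 9 epithelial and 8 mesenchymal markers, 2, 3, 2 and 1 passed, and MS4A1, HBB, PF4, KRT5 and COL3A1 were listed at 0 in all 4 libraries. The SD of the log2 difference between replicate libraries was 0.231 with ABBV-075 and 0.261 with DMSO. Mitochondrial transcripts took 9.42% and 9.43% of the FPKM sum with ABBV-075, against 8.41% and 8.08% with DMSO.

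On the FPKM scale, ABBV-075 changed close to the same number of genes in each direction, but the deep changes were mostly falls. Of 12314 genes, 5266 (42.8%) passed the test, 2520 higher (20.5%) and 2746 lower (22.3%). Of these, 562 were at least 2-fold higher (4.56%) and 945 at least 2-fold lower (7.67%), and at 4-fold the counts were 56 and 145. Here a gene rose or fell when limma gave an adjusted p under 0.05 (Benjamini-Hochberg over all 12314 genes). The ± is the standard error with 2 libraries in each group. Its variance is shared over all 12 groups of the series and is not taken from these 4 libraries alone. A level or difference is on the log2(FPKM + 1) scale where so named. This scale understates the change of genes near 1 FPKM. The median difference over all genes was -0.01. FPKM is scaled to each library's total, so this median and the balance of rises and falls cannot show a change in total RNA per cell. With all libraries scaled to the same FPKM sum, 2797 genes were higher and 2385 lower. Values with ABBV-075 and with DMSO did not overlap for 9619 genes (78.1%), so a lack of overlap was the common case. Of the tested genes, 330 passed the filter only through the ABBV-075 libraries and 277 of them rose, and 396 passed only through the DMSO libraries and 355 of them fell. For such genes the direction of the difference is set by the filter.

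**Figure D1:**
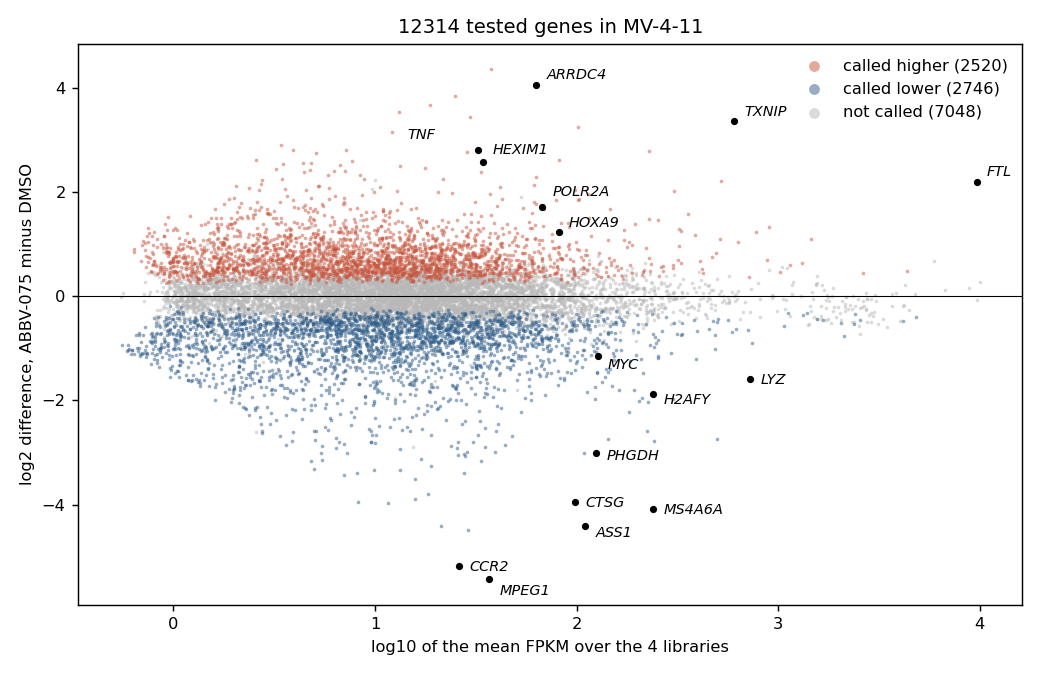
Log2 difference between ABBV-075 and DMSO (vertical) against the log10 of the mean FPKM over the 4 libraries (horizontal), 1 point per gene, red for the 2520 genes called higher, blue for the 2746 called lower and grey for the 7048 not called. The largest falls, MPEG1 among them, reach further from 0 than the largest rises, and FTL is at the abundant end with a rise of 2.20.

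The share of genes that changed depended on abundance. Among genes with a mean of 1 to 5 FPKM over the 4 libraries, 24.1% rose and 23.1% fell, and among those at 100 FPKM or more, 11.7% rose and 19.3% fell. The 10 most abundant genes took 12.3% and 12.6% of the FPKM sum with ABBV-075, against 9.59% and 9.82% with DMSO. FTL, the light chain of the iron store ferritin, had 15559 and 16251 FPKM with ABBV-075, against 3366 and 3548 FPKM with DMSO. The treated libraries were both far above the DMSO libraries, a rise of 2.20 ± 0.16 (limma adjusted p = 1.31e-08). EEF1A1, an elongation factor of translation, stood at 9727 and 9256 FPKM with ABBV-075, against 9877 and 10099.8 FPKM with DMSO, and was not called.

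**Figure D2:**
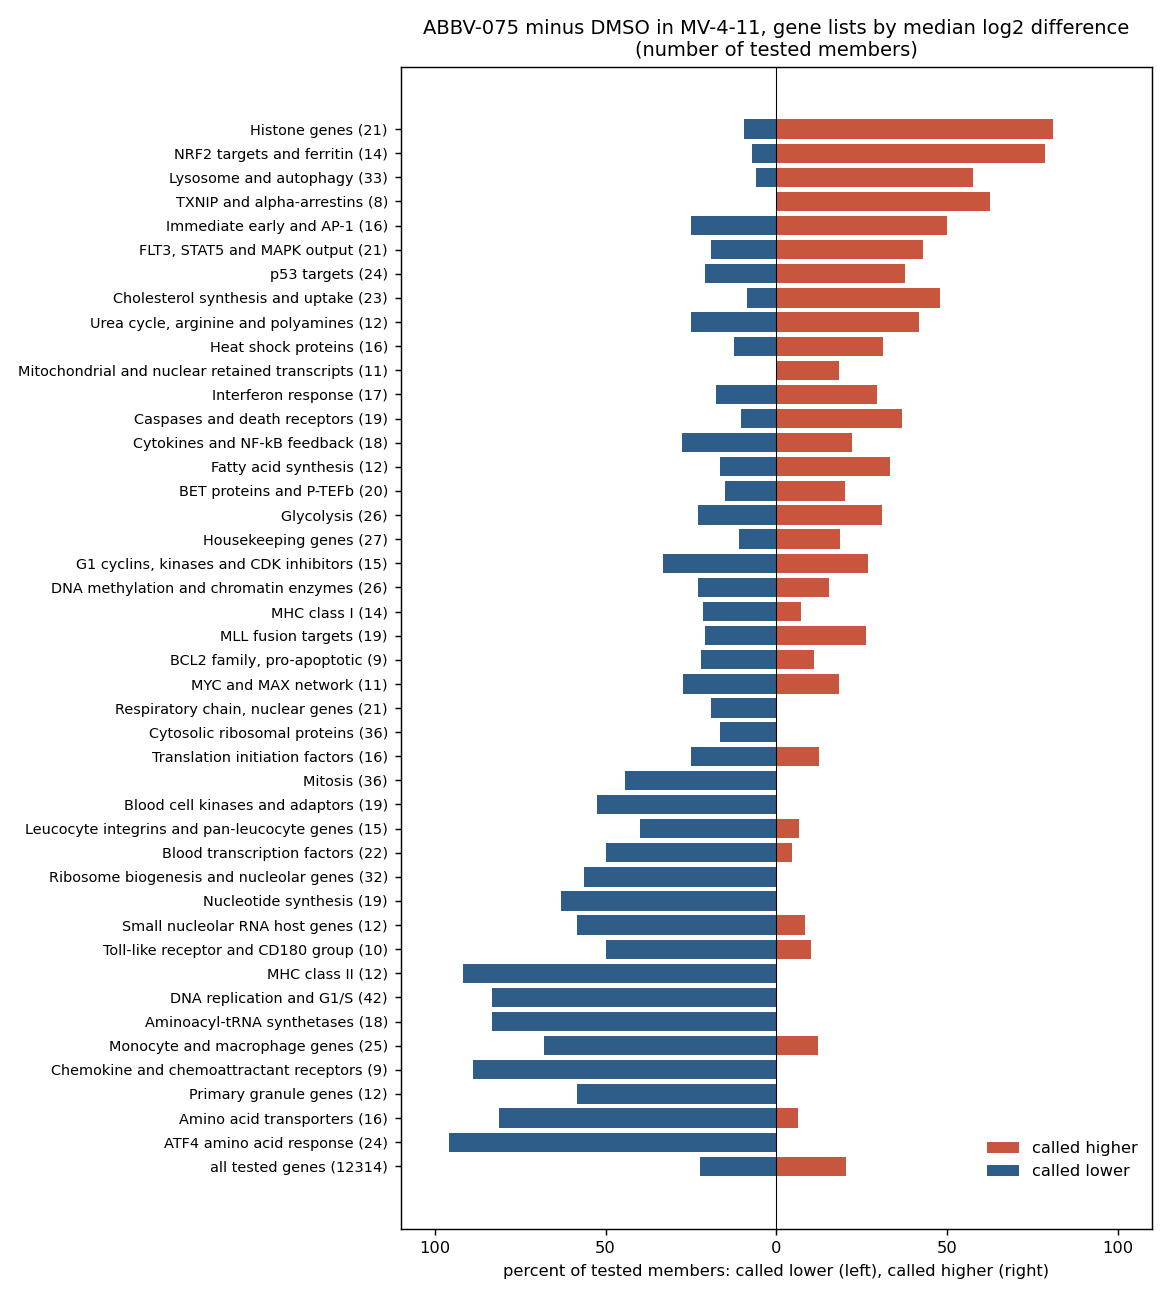
Percent of the tested members of each gene list called higher (red, to the right) and called lower (blue, to the left) with ABBV-075 against DMSO, ordered by the median log2 difference, with all 12314 tested genes as the bottom bar (20.5% higher and 22.3% lower). Lists of amino acid supply, DNA replication and monocyte function lie mostly on the lower side, and histone, ferritin and lysosome lists on the higher side.

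Genes known as markers of BET inhibition changed strongly. HEXIM1, an inhibitor of P-TEFb, had 59.98 and 58.4 FPKM with ABBV-075, against 9.10 and 9.21 FPKM with DMSO. SERPINI1, a protease inhibitor, had 13.2 and 13.5 FPKM with ABBV-075, against 1.19 and 0.945 FPKM with DMSO. In both genes each treated library was above each DMSO library, and they rose by 2.57 ± 0.15 and 2.80 ± 0.17 on the log2 scale (limma adjusted p = 1.87e-09 and 2.62e-09). CCR2, the receptor of the monocyte attractant CCL2, nearly disappeared, at 0.598 and 0.355 FPKM with ABBV-075, against 52.3 and 51.5 FPKM with DMSO. It fell by 5.17 ± 0.12. CD180, a relative of the Toll-like receptors, had 5.33 and 4.63 FPKM with ABBV-075, against 44.8 and 40.6 FPKM with DMSO, and fell by 2.87 ± 0.11. Of the 20 tested BET and P-TEFb genes 4 rose and 3 fell (median 0.05), shares close to those of all genes, and the count of falls was 1 without ABBV-075 replicate 1 or without DMSO replicate 2. BRD2 rose by 0.89 ± 0.11, at 134 and 134 FPKM with ABBV-075, against 68.7 and 74.3 FPKM with DMSO, while BRD3 was not called, at 14.2 and 14.1 FPKM with ABBV-075, against 12.9 and 14.7 FPKM with DMSO. The elongation factor ELL2 rose by 2.11 ± 0.16 and its partner AFF4 by 0.98 ± 0.13, and HEXIM2 fell by 0.95 ± 0.18.

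**Figure D3:**
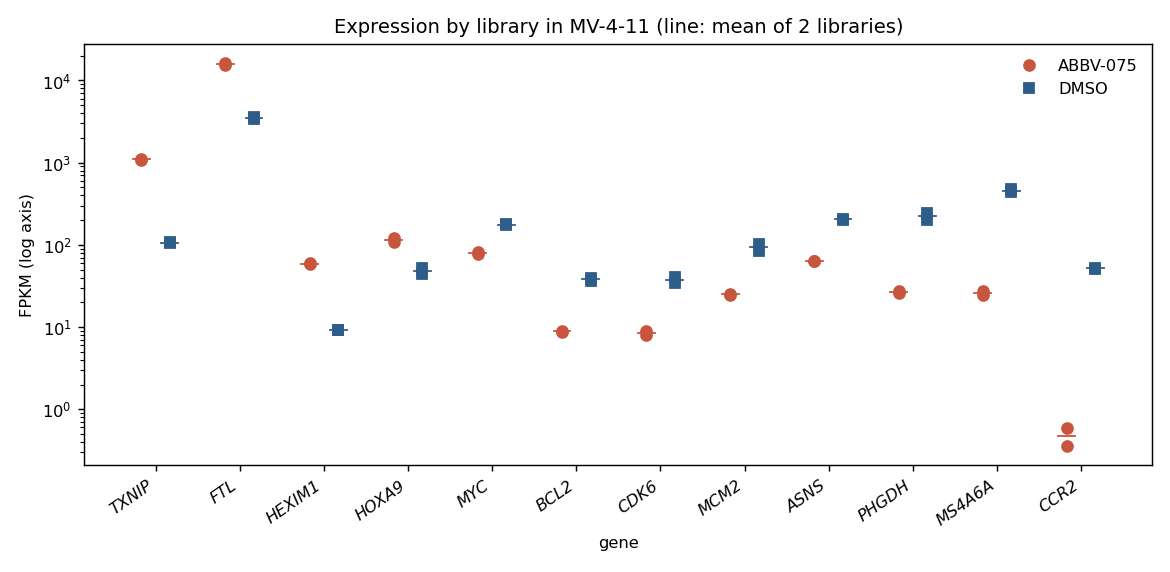
FPKM on a log axis in each library for 12 genes, ABBV-075 libraries as circles on the left of each gene and DMSO libraries as squares on the right, with a short line at the mean of 2. The symbols of a group nearly coincide and no gene shown has overlapping groups, with TXNIP at 1119 and 1084 FPKM with ABBV-075 against 108 and 105 FPKM with DMSO at the left and CCR2 at 0.598 and 0.355 FPKM with ABBV-075 against 52.3 and 51.5 FPKM with DMSO at the right.

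The growth regulator MYC, which drives ribosome production and metabolism, fell. Its level was 80.8 and 76.7 FPKM with ABBV-075, against 178 and 174 FPKM with DMSO. Both treated libraries were below both DMSO libraries, a log2 difference of -1.15 ± 0.18 (limma adjusted p = 6.39e-05). MAX, its obligate partner, was not called at -0.16 ± 0.15. Among the MXD proteins, which compete with MYC for MAX, MXD4 rose by 1.34 ± 0.27 and MXD1 by 0.58 ± 0.12, whereas MXI1 fell by 0.67 ± 0.16 and was not called without DMSO replicate 1. Over the 11 tested genes of this network 2 rose and 3 fell (median -0.16), near the 20.5% and 22.3% of all genes. The falls were fewer without DMSO replicate 1.

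Genes of ribosome assembly, many of them known MYC targets, fell in part. Of 32 tested ribosome biogenesis and nucleolar genes 18 fell and none rose, with a median of -0.54. NME1 is in this list, though it encodes a nucleoside diphosphate kinase rather than an assembly factor. It had 79.7 and 79.4 FPKM with ABBV-075, against 199 and 226 FPKM with DMSO, and fell by 1.40 ± 0.16. NOP16 fell by 1.28 ± 0.25, WDR12 by 1.03 ± 0.11 and the pseudouridine synthase DKC1 by 0.95 ± 0.10. The abundant nucleophosmin (NPM1) and nucleolin (NCL) did not pass, at -0.40 ± 0.24 and -0.19 ± 0.29, but NPM1 was called lower in a fit of the 6 MV-4-11 libraries alone (limma adjusted p = 0.0217). Of 19 nucleotide synthesis genes 12 fell and none rose (median -0.58), among them the purine enzymes PAICS, at -1.05 ± 0.11, and PFAS, at -1.03 ± 0.15, and the folate enzyme MTHFD1, at -1.51 ± 0.17. Of 36 cytosolic ribosomal protein genes 6 fell and none rose (median -0.20), a smaller share than the 22.3% of all genes. Fits of the MV-4-11 libraries alone called 11 of them lower and 1 higher, and scaling to equal FPKM sums left 1 lower. Without ABBV-075 replicate 2 or DMSO replicate 2 the ribosome biogenesis count was 11, and with any 1 of the 4 libraries left out the ribosomal protein count was 0 or 1.

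The E-box CACGTG, the site that MYC and MAX bind, reads the same on both strands. It was found in the promoter window of 13 of 26 ribosome biogenesis genes with a window (50%), against 13.0% of the 9235 tested genes with one and 8.79% of 27195 genes in the RefSeq promoter table. Of the holders 7 of 13 fell, and of the genes without it 9 of 13. Known MYC targets were among the genes chosen for the list, so its share does not stand apart from that choice. A window holds 250 bases before to 50 after a RefSeq gene start of build GRCh38.p14, and a gene counted when any of its windows held the motif. A match describes these letters and is not a measured site. NME1 is shown because it fell most among the holders that passed the test (chr17:51153309-51153608, plus strand, E-box in capitals at position 35 from the start).
NME1: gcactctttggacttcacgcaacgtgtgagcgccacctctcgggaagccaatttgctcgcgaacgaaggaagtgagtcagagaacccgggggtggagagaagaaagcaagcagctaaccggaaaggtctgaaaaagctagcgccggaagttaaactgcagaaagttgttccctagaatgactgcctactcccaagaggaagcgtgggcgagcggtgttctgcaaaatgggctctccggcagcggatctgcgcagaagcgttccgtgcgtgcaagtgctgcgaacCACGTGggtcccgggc

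The genes that the MLL fusion is known to hold active did not stand apart from all genes in their counts. Of 19 tested targets 5 rose and 4 fell (median -0.13), near the shares of 20.5% and 22.3% of all genes, and 6 of 25 listed genes did not pass the filter. HOXA9, a homeobox gene needed by this leukaemia type, had 109 and 119.7 FPKM with ABBV-075, against 52.1 and 44.8 FPKM with DMSO, and its neighbour HOXA10 had 67.7 and 73.96 FPKM with ABBV-075, against 31.8 and 27.95 FPKM with DMSO. Treated libraries were above DMSO libraries in both, with rises of 1.23 ± 0.16 and 1.22 ± 0.12 (limma adjusted p = 1.74e-05 and 6.48e-07). Their cofactor MEIS1 rose by 0.44 ± 0.17 (limma adjusted p = 0.0482), and was not called without either ABBV-075 library, without DMSO replicate 2 (limma adjusted p = 0.0646, 0.244 and 0.289) or with a pseudocount of 0.1 (0.403). MEF2C was not called at -0.24 ± 0.20 and FLT3 was not called at -0.25 ± 0.14. MYB, a progenitor regulator, had 199 and 202 FPKM with ABBV-075, against 259 and 227 FPKM with DMSO, and its difference of -0.27 ± 0.13 missed the threshold (limma adjusted p = 0.0922), though it passed without both SKM-1 DMSO libraries (0.0377). Falls were found in CDK6, a G1 kinase, at 8.06 and 8.89 FPKM with ABBV-075, against 40.2 and 34.4 FPKM with DMSO, and in BCL2, which blocks apoptosis, at 8.81 and 9.001 FPKM with ABBV-075, against 39.8 and 36.3 FPKM with DMSO. Their log2 differences were -2.01 ± 0.19 and -1.98 ± 0.12, and the fucosyltransferase FUT4 and the SUMO protease SENP6 fell by 1.42 ± 0.10 and 1.40 ± 0.19. The count of rises was 3 without either ABBV-075 library or without DMSO replicate 2, and 2 with a pseudocount of 0.1.

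Other blood transcription factors fell more often than they rose. Of 22 tested 11 fell, 1 rose and 10 were not called (median -0.44). In a fit of the 6 MV-4-11 libraries alone 4 rose. KLF4, which promotes monocyte maturation, had 2.97 and 3.30 FPKM with ABBV-075, against 16.95 and 12.4 FPKM with DMSO, and fell by 1.91 ± 0.14. IRF8, needed for the monocyte lineage, had 91.2 and 91.3 FPKM with ABBV-075, against 216 and 214 FPKM with DMSO, and fell by 1.23 ± 0.17. KLF6 fell by 1.41 ± 0.17 and IRF5, which turns on cytokine genes, by 0.99 ± 0.24, and the homeobox gene HHEX rose by 1.17 ± 0.17, at 39.7 and 39.9 FPKM with ABBV-075, against 19.2 and 15.4 FPKM with DMSO. SPI1 was not called at -0.46 ± 0.24, but was called lower in a fit of the 6 MV-4-11 libraries alone (limma adjusted p = 0.022).

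Monocyte and macrophage genes mostly fell, and MPEG1 had the lowest log2 difference of the 12314 genes. Of 25 tested members 17 fell and 3 rose, with a median of -1.12. With an FPKM of 5 or more required in 2 of the 4 libraries 1 rose, and the median was -1.46. MPEG1, which encodes a pore protein of phagocytes, had 0.787 and 0.656 FPKM with ABBV-075, against 73.6 and 72.6 FPKM with DMSO, and MS4A6A, a membrane protein of monocytes, had 27.2 and 24.7 FPKM with ABBV-075, against 475 and 434 FPKM with DMSO. The groups were far apart, with log2 differences of -5.43 ± 0.12 and -4.08 ± 0.15 (limma adjusted p = 4.33e-14 and 5.61e-12). AIF1, an actin-binding protein of macrophages, fell as well, with 23.99 and 22.4 FPKM with ABBV-075, against 209.9 and 178 FPKM with DMSO. The growth factor receptor CSF1R fell by 2.54 ± 0.20, the scavenger receptor CD36 by 2.36 ± 0.10 and the lectin receptor CLEC12A by 2.46 ± 0.13. ITGAM, the integrin chain CD11b that marks mature myeloid cells, went the other way. It had 2.80 and 3.48 FPKM with ABBV-075, against 0.851 and 0.865 FPKM with DMSO, a rise of 1.15 ± 0.15. It passed the filter only through the ABBV-075 libraries, so it is higher there by that choice. The pan-myeloid CD33 (-0.33 ± 0.14) and the adaptor TYROBP (-0.46 ± 0.19) were not called, but both were called lower in a fit of the 6 MV-4-11 libraries alone (limma adjusted p = 0.0215 and 0.0156), and TYROBP also without DMSO replicate 1, at -0.66. In bulk RNA, fewer cells of a kind and less RNA per cell cannot be told apart.

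Chemokine receptor and MHC class II genes mostly fell, and MHC class I genes did not. Of 9 tested chemokine and chemoattractant receptors 8 fell and none rose (median -1.48), including CCR1, at -2.04 ± 0.10, and CXCR4, which holds cells in the marrow, at -1.48 ± 0.10, with 36.1 and 38.4 FPKM with ABBV-075, against 106 and 105 FPKM with DMSO. Of 10 genes in the Toll-like receptor and CD180 group 5 fell and 1 rose, with LY86, the partner of CD180, at -2.22 ± 0.17 and TLR5 up by 0.84 ± 0.09. Of 12 MHC class II genes 11 fell and none rose (median -1.07). CIITA, their master activator, had 0.236 and 0.318 FPKM with ABBV-075, against 4.43 and 5.17 FPKM with DMSO, and HLA-DRA had 12.7 and 11.5 FPKM with ABBV-075, against 81.9 and 84.6 FPKM with DMSO. They fell by 2.18 ± 0.12 and 2.69 ± 0.21, while RFX5, a subunit of the factor that binds class II promoters, was not called at -0.16 ± 0.11. Of 14 MHC class I genes 3 fell and 1 rose (median -0.12), a share of falls near the 22.3% of all genes, and their summed level was 3132 and 3052 FPKM with ABBV-075, against 2512 and 2695 FPKM with DMSO. The rise was B2M, the light chain, at 1445 and 1318 FPKM with ABBV-075, against 972 and 862 FPKM with DMSO, which was not called without ABBV-075 replicate 1 or without DMSO replicate 2. HLA genes are alike in sequence, so reads may be split between them. With an FPKM of 1 or more required in all 4 libraries, 4 chemokine receptors fell (median -1.09) and 7 MHC class II genes fell. The Toll-like receptor and CD180 group then had 3 falls and no rise. A gene that passes the filter only through the DMSO libraries is lower with ABBV-075 by that choice. The summed level of 12 B lymphoid markers was 4.21 and 4.51 FPKM with ABBV-075, against 9.68 and 12.7 FPKM with DMSO, with MS4A1 and DNTT at 0 in all 4 libraries, and its part in these results was not tested.

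Primary granule genes fell in part. Of 12 tested 7 fell and none rose (median -1.50). The protease cathepsin G (CTSG) had 12.1 and 10.1 FPKM with ABBV-075, against 168 and 205 FPKM with DMSO, and lysozyme (LYZ) had 378 and 349 FPKM with ABBV-075, against 1155 and 1021 FPKM with DMSO. They fell by 3.95 ± 0.65 and 1.58 ± 0.23, and the inhibitor cystatin F (CST7) fell by 3.94 ± 0.17. AZU1, PRTN3 and ELANE, serine protease family members of the same granule, were not called. AZU1 had 401 and 439 FPKM with ABBV-075, against 389.7 and 470.2 FPKM with DMSO, and the differences of PRTN3 and ELANE were -0.05 ± 0.34 and 0.30 ± 0.29. Among kinases and adaptors of blood cells 10 of 19 fell and none rose, including FGR, a SRC-family kinase, at -2.72 ± 0.11, and MATK at -2.21 ± 0.23. Without ABBV-075 replicate 2 this count was 6. The integrin ITGAL, a chain of LFA-1, fell by 2.03 ± 0.12, at 87.3 and 88.7 FPKM with ABBV-075, against 355 and 371 FPKM with DMSO.

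DNA replication genes mostly fell. Of 42 tested genes of replication and the G1/S step 35 fell and none rose (median -1.09). CDT1, which loads the replicative helicase, had 14.2 and 15.6 FPKM with ABBV-075, against 63.1 and 76.01 FPKM with DMSO. MCM2, a subunit of that helicase, had 25.5 and 24.6 FPKM with ABBV-075, against 84.8 and 102 FPKM with DMSO. Treated values were well below DMSO values in both, with log2 differences of -2.15 ± 0.25 and -1.85 ± 0.24 (limma adjusted p = 3.58e-06 and 1.31e-05). CDC45, which activates the helicase, fell by 2.06 ± 0.17, MCM5 by 1.89 ± 0.29, the polymerase subunit POLE2 by 1.86 ± 0.17 and the primase PRIM1 by 1.80 ± 0.20. TK1 (-0.33 ± 0.30) and SLBP (-0.13 ± 0.16), which binds histone mRNA, were not called.

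The E2F motif was searched as TTTNNCGC on both strands. It was found in 22 of 37 replication genes with a promoter window (59.5%), against 13.6% of tested genes and 8.26% of all genes in the table. Of the holders 21 of 22 were called lower, and of the genes without it 12 of 15. Known E2F targets were among the genes chosen for this list, so its share does not stand apart from that choice. CDT1 (chr16:88803539-88803838, plus strand) and POLE2 (chr14:49688165-49688464, minus strand) are shown as the holders with the deepest falls, each with 2 matches in capitals, starting at positions -213 and -35 and at -81 and -5 from the gene start.
CDT1: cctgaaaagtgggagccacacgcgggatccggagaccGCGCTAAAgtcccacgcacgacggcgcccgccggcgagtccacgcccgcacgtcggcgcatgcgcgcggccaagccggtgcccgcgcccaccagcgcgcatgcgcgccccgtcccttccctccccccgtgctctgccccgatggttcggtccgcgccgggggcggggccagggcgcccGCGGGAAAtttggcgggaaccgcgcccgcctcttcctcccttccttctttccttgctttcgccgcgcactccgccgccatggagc
POLE2: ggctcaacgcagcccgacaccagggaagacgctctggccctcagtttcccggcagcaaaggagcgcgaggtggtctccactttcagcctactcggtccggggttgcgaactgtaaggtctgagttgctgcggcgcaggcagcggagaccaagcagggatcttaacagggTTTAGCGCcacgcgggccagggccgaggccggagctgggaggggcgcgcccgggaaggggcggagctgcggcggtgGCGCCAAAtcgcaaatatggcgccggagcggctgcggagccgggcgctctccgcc

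Mitotic genes changed less. Of 36 tested 16 fell and none rose (median -0.32), with FOXM1, the transcription factor of the G2/M genes, at -1.04 ± 0.18, the checkpoint kinase BUB1B at -0.98 ± 0.14 and AURKA at -0.79 ± 0.11. The count was 9 without ABBV-075 replicate 2 and 7 without DMSO replicate 1. Securin (PTTG1) was not called at 0.51 ± 0.25, but was called higher in a fit of the 6 MV-4-11 libraries alone (limma adjusted p = 0.00808), where 2 mitotic genes rose. G1 regulators moved both ways, with 4 rises and 5 falls in 15 (median -0.05), against 20.5% and 22.3% of all genes. With an FPKM of 1 or more required in all 4 libraries 2 of them rose. Among the rises were the inhibitor genes CDKN1A and CDKN2B. CDKN1A, which encodes p21, had 130.2 and 133 FPKM with ABBV-075, against 44.97 and 53.3 FPKM with DMSO, a rise of 1.41 ± 0.18, and CDKN2B rose by 1.57 ± 0.10. CDK4, the partner of the D cyclins, fell by 1.41 ± 0.22 beside CDK6, while CCND3 rose by 0.68 ± 0.21, a call lost without ABBV-075 replicate 2 or DMSO replicate 1.

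Genes of amino acid supply fell almost throughout. ATF4 is the transcription factor that turns on amino acid synthesis, import and tRNA charging when amino acids are short. Of 24 tested genes of its response 23 fell and none rose (median -1.86). PHGDH, the first enzyme of serine synthesis, had 27.8 and 25.9 FPKM with ABBV-075, against 201 and 245 FPKM with DMSO. ALDH1L2, a mitochondrial folate enzyme, had 1.78 and 1.65 FPKM with ABBV-075, against 30.99 and 28.6 FPKM with DMSO. CHAC1, which degrades glutathione, had 2.39 and 3.09 FPKM with ABBV-075, against 30.3 and 39.7 FPKM with DMSO. In all of them the groups were far apart, and all fell (limma adjusted p = 1.45e-07, 1.97e-12 and 1.77e-08), ALDH1L2 by 3.50 ± 0.12 and CHAC1 by 3.26 ± 0.24. The pseudokinase TRIB3 fell by 3.03 ± 0.24, the proline enzyme PYCR1 by 3.17 ± 0.26 and the alanine aminotransferase GPT2 by 2.79 ± 0.17. ALDH18A1, which acts before PYCR1 in proline synthesis, was the member not called, at -0.40 ± 0.19, and was called lower in a fit of the 6 MV-4-11 libraries alone (limma adjusted p = 0.012).

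Importers and tRNA synthetases moved with them. Of 16 amino acid transporter genes 13 fell and 1 rose (median -1.75), and none rose without DMSO replicate 1. With an FPKM of 1 or more required in all 4 libraries the transporter median was -1.25. SLC7A11, the cystine importer, had 0.377 and 0.405 FPKM with ABBV-075, against 8.32 and 6.62 FPKM with DMSO, and fell by 2.60 ± 0.15. SLC7A5, the large neutral amino acid carrier, had 49.7 and 48.1 FPKM with ABBV-075, against 162 and 192 FPKM with DMSO, and fell by 1.83 ± 0.25, and the glycine carrier SLC6A9 fell by 2.63 ± 0.10. Of 18 cytosolic aminoacyl-tRNA synthetases 15 fell and none rose (median -1.11), led by GARS at 79.2 and 66.7 FPKM with ABBV-075, against 262 and 244 FPKM with DMSO, a log2 difference of -1.79 ± 0.13. QARS (-0.29 ± 0.22) and RARS (0.28 ± 0.14) were not called. The list of urea cycle, arginine and polyamine genes moved both ways, with 5 of 12 higher and 3 lower (median 0.30). Its rises were 3 without either ABBV-075 library or DMSO replicate 1, and its falls 1 without ABBV-075 replicate 1 or either DMSO library. ASS1, which acts on citrulline in arginine synthesis, had 9.78 and 8.28 FPKM with ABBV-075, against 193 and 231 FPKM with DMSO. It fell by 4.41 ± 0.28, and CBS, the first step from homocysteine to cysteine, fell by 3.97 ± 0.19. EIF4EBP1, a brake on translation and an ATF4 target, had 76.8 and 84.1 FPKM with ABBV-075, against 293 and 362 FPKM with DMSO, and fell by 2.01 ± 0.23. SAT1, of the same list as ASS1, starts polyamine breakdown and rose by 2.62 ± 0.27, at 143 and 138 FPKM with ABBV-075, against 25.97 and 18.7 FPKM with DMSO.

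The composite element of ATF4 and C/EBP factors was searched as TGATGNAA on both strands. It was found in 4 of 19 ATF4 response genes with a promoter window (21.1%), in 5 of 15 transporters (33.3%) and in 6 of 11 synthetases (54.5%), against 2.48% of tested genes and 4.46% of all genes in the table. Known ATF4 targets were among the genes chosen for these lists, so their shares do not stand apart from that choice. All 15 holders fell, but so did most genes without the element, 14 of 15 in the ATF4 list, 7 of 10 transporters and 3 of 5 synthetases. The holders were ASNS, CHAC1, ATF3 and JDP2, the transporters SLC3A2, SLC7A1, SLC38A1, SLC1A4 and SLC1A5, and the synthetases AARS, CARS, IARS, MARS, NARS and TARS, with log2 differences between -3.26 and -0.37. The ATF4 response genes with the deepest falls among them are shown, CHAC1 (chr15:40953221-40953520, plus strand), JDP2, a repressor of AP-1 sites (chr14:75427772-75428071, plus strand), and asparagine synthetase, ASNS (chr7:97872359-97872658, minus strand). The element is in capitals and begins at positions -209, -16 and -68. Both ASNS, with 64.5 and 64.5 FPKM with ABBV-075, against 208 and 199.9 FPKM with DMSO, and JDP2, with 3.47 and 3.74 FPKM with ABBV-075, against 24.5 and 25.9 FPKM with DMSO, were chosen for display after their values were seen.
CHAC1: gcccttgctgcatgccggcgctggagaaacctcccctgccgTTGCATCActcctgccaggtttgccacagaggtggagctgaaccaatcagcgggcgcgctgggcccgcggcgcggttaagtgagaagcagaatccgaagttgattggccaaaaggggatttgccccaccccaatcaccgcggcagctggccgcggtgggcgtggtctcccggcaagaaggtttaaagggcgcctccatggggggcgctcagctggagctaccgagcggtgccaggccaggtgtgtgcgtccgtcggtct
JDP2: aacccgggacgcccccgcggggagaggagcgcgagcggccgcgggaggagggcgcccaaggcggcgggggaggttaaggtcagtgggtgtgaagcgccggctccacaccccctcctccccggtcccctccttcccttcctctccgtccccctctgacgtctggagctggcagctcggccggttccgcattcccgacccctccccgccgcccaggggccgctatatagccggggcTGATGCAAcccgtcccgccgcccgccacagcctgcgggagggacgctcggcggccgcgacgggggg
ASNS: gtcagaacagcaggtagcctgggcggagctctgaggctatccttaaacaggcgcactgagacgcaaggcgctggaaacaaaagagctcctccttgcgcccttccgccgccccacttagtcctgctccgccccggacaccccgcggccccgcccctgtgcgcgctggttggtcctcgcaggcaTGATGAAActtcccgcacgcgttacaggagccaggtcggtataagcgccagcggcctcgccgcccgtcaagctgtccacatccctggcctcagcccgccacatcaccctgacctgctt

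TXNIP, an arrestin that restrains glucose uptake and binds thioredoxin, rose. It had 1119 and 1084 FPKM with ABBV-075, against 108 and 105 FPKM with DMSO. Its relative ARRDC4 had 118 and 122 FPKM with ABBV-075, against 7.01 and 5.60 FPKM with DMSO. The groups did not overlap, and the rises were 3.36 ± 0.12 and 4.06 ± 0.14 (limma adjusted p = 3.86e-12 and 3.86e-12). Of 8 genes in the list 5 rose and none fell, and the count was 3 without ABBV-075 replicate 1, without DMSO replicate 1 or without DMSO replicate 2. The carbohydrate response element, searched by its consensus on both strands, was found in TXNIP alone of the 8, in 0.162% of tested genes and in 0.0735% of all genes in the table. It is shown in capitals, beginning at position -88 of the TXNIP promoter (chr1:145996530-145996829, minus strand).
TXNIP: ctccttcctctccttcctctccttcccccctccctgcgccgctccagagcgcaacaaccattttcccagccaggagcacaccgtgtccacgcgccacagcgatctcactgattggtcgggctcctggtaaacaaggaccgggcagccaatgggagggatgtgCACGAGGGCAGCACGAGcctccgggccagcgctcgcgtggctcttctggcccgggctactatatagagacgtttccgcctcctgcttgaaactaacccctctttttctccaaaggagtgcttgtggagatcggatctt

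Histone genes mostly rose. Of 21 tested 17 rose and 2 fell (median 1.52). With an FPKM of 1 or more required in all 4 libraries the median was 0.93. HIST2H2BE had 23.4 and 26.5 FPKM with ABBV-075, against 1.14 and 1.37 FPKM with DMSO. HIST2H4A had 48.2 and 47.2 FPKM with ABBV-075, against 1.96 and 2.94 FPKM with DMSO. All treated values lay above all DMSO values, with rises of 3.53 ± 0.10 and 3.84 ± 0.15. The falls were in the variant histones H2AFY and H2AFZ, and 1 fall was called without ABBV-075 replicate 2 or without DMSO replicate 1. H2AFY, which encodes macroH2A, had 98.6 and 107 FPKM with ABBV-075, against 376 and 379 FPKM with DMSO, a log2 difference of -1.87 ± 0.10. Histone genes have near-identical copies that may share reads. H3F3A rose by 2.22 ± 0.84 while its pseudogene H3F3AP4 stood at 94.6 and 38.4 FPKM with ABBV-075, against 455 and 386 FPKM with DMSO, a log2 difference of -2.78 ± 0.63. H2AFY, H2AFZ and H3F3A were named after their values were seen. Most histone mRNAs lack a poly-A tail and enter poly-A libraries only in part.

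Iron, oxidant defence and lysosome genes rose. Of 14 NRF2 targets and ferritin genes 11 rose and 1 fell (median 0.74), the fall being SLC7A11, which is an ATF4 target as well. With an FPKM of 1 or more required in all 4 libraries none fell. SLC7A11 passed the filter only through the DMSO libraries and HMOX1 only through the ABBV-075 libraries, so their directions follow from that choice. HMOX1, which breaks down haem, had 4.45 and 4.46 FPKM with ABBV-075, against 0.284 and 0.311 FPKM with DMSO, and rose by 2.07 ± 0.13. The quinone reductase NQO1 had 33.9 and 32.9 FPKM with ABBV-075, against 7.76 and 7.53 FPKM with DMSO, and rose by 1.99 ± 0.17, and the ferritin heavy chain FTH1 rose by 1.33 ± 0.13. Of 33 lysosome and autophagy genes 19 rose and 2 fell (median 0.61). PSAP, the precursor of the saposins that help break down sphingolipids, had 158 and 165 FPKM with ABBV-075, against 40.7 and 47.3 FPKM with DMSO, and rose by 1.86 ± 0.17, and GABARAPL1, a membrane tag of autophagosomes, rose by 1.77 ± 0.12. PLD3, a lysosomal exonuclease, had 394 and 403 FPKM with ABBV-075, against 51.9 and 62.9 FPKM with DMSO, a rise of 2.78 ± 0.20. The cathepsins CTSS and CTSH, which act in antigen-presenting cells, fell by 1.15 ± 0.11 and 1.16 ± 0.17.

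Sterol genes rose moderately. Of 23 genes of cholesterol synthesis and uptake 11 rose and 2 fell (median 0.35). SQLE, the first oxidation step of sterol synthesis, had 45.3 and 42.4 FPKM with ABBV-075, against 15.8 and 15.7 FPKM with DMSO. Both treated libraries were above both DMSO libraries. SQLE rose by 1.42 ± 0.11, the lanosterol synthase LSS by 1.63 ± 0.27 and INSIG1, which retains the sterol sensor, by 1.30 ± 0.23. The falls were 1 without ABBV-075 replicate 1 and 0 without ABBV-075 replicate 2 or DMSO replicate 2. SREBF2, the transcription factor of this pathway, was not called, at 67.03 and 62.3 FPKM with ABBV-075, against 60.6 and 69.3 FPKM with DMSO. It was also the single holder of the sterol response element, searched by its consensus on both strands, among 18 list genes with a promoter window, against 0.152% of tested genes and 0.191% of all genes in the table. Glycolysis genes were mixed, with 8 rises and 6 falls in 26 (median 0.05), against 20.5% and 22.3% of all genes. The pyruvate kinase PKM rose by 1.18 ± 0.18, at 544 and 533 FPKM with ABBV-075, against 222 and 254 FPKM with DMSO. The fructose carrier SLC2A5 fell by 1.72 ± 0.16, and GAPDH and ENO1 were not called. Of 16 heat shock proteins 5 rose and 2 fell (median 0.20), with HSPA8 up by 1.05 ± 0.16 and the mitochondrial HSPA9 at -1.40 ± 0.10, and the count of rises was 3 without either ABBV-075 library or without DMSO replicate 1, and that of falls 1 with any 1 of the 4 libraries left out.

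Survival genes changed in opposite directions. BCL2 fell as above, and BCL2L1, which encodes BCL-XL, fell by 0.91 ± 0.19, at 6.29 and 5.63 FPKM with ABBV-075, against 11.4 and 12.9 FPKM with DMSO. MCL1 had 163 and 165 FPKM with ABBV-075, against 100.0 and 86.4 FPKM with DMSO, and rose by 0.82 ± 0.12. BCL2L11, which encodes the death activator BIM, had 15.8 and 16.6 FPKM with ABBV-075, against 6.19 and 6.32 FPKM with DMSO, and rose by 1.25 ± 0.10, whereas PMAIP1 (NOXA) and BIK fell by 0.83 ± 0.24 and 0.91 ± 0.24. The PMAIP1 call was lost without ABBV-075 replicate 2 or DMSO replicate 1, and the BIK call without ABBV-075 replicate 1. BAX was not called, at 292 and 321 FPKM with ABBV-075, against 299 and 328 FPKM with DMSO. Of 19 caspase and death receptor genes 7 rose and 2 fell (median 0.12), and the falls were 0 or 1 with any 1 of the 4 libraries left out. Among 24 p53 targets 9 rose and 5 fell (median 0.39), the falls near the 22.3% of all genes. TP53INP1 rose by 2.32 ± 0.16. SESN2, a stress sensor that is an ATF4 target as well, was among the falls, at 11.1 and 10.5 FPKM with ABBV-075, against 21.6 and 23.5 FPKM with DMSO. The p53 falls were 3 without ABBV-075 replicate 2 or without DMSO replicate 1.

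Signalling genes downstream of FLT3 and MAPK rose more often than they fell, with 9 rises and 4 falls in 21 (median 0.40). The share of falls was near the 22.3% of all genes, and that of rises above the 20.5%. The falls were 2 with a pseudocount of 0.1 or with an FPKM of 5 or more required in 2 of the 4 libraries. The early growth response gene EGR1 had 118 and 129 FPKM with ABBV-075, against 34.6 and 32.4 FPKM with DMSO, and rose by 1.85 ± 0.31. IER3 rose by 2.40 ± 0.21, the feedback inhibitor SPRY2 by 0.93 ± 0.11 and SOCS3 fell by 1.16 ± 0.11. Among 16 immediate early genes 8 rose and 4 fell, with IER2 up by 1.84 ± 0.20, FOSB at -1.93 ± 0.19 and FOS not called at -0.11 ± 0.26. With the same FPKM minimum of 5 the immediate early falls were 2. The cytokine TNF had 55.7 and 59.6 FPKM with ABBV-075, against 6.36 and 8.54 FPKM with DMSO, and rose by 2.81 ± 0.14, and TGFB1 rose by 1.97 ± 0.20, while CCL2 and the antagonist IL1RN fell by 2.19 ± 0.22 and 2.18 ± 0.13. Of 17 interferon response genes 5 rose and 3 fell, against 20.5% and 22.3% of all genes. IFI6 rose by 3.15 ± 0.31, at 21.6 and 23.8 FPKM with ABBV-075, against 1.56 and 1.79 FPKM with DMSO. XAF1 had 1.54 and 1.63 FPKM with ABBV-075, against 37.4 and 32.3 FPKM with DMSO, a log2 difference of -3.79 ± 0.20. The interferon rises were 3 without ABBV-075 replicate 2 or without DMSO replicate 2. The nuclear RNA NEAT1 rose by 1.96 ± 0.18, and POLR2A, the large subunit of RNA polymerase II, had 109.6 and 99.4 FPKM with ABBV-075, against 27.8 and 34.4 FPKM with DMSO, and rose by 1.72 ± 0.23.

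A few of the largest changes belong to none of these groups. XAGE1B, a cancer-testis antigen with near-identical copies, had 80.6 and 58.6 FPKM with ABBV-075, and was listed at 0 in one DMSO library and at 10.7 FPKM in the other. EFR3B, a membrane scaffold for a lipid kinase, had 6.81 and 6.78 FPKM with ABBV-075, against 0.0496 and 0.0459 FPKM with DMSO, a rise of 2.90 ± 0.10. The transglutaminase TGM5 had 1.56 and 1.58 FPKM with ABBV-075, against 56.02 and 57.2 FPKM with DMSO, and fell by 4.49 ± 0.15, the scaffold protein GRIP1 fell by 3.89 ± 0.12, the adhesion molecule AMICA1 by 3.42 ± 0.11 and the lectin CLEC10A by 3.31 ± 0.08.

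To ask where MV-4-11 differed from the other leukaemia lines, its difference was compared with the mean difference of SKM-1 and Kasumi-1, which share no libraries with it. Of 10622 genes tested, 1531 lay above that mean (14.4%) and 1237 below it (11.6%), at a limma adjusted p under 0.05. Ribosome biogenesis genes stood apart, with 28 of 32 above and none below. The medians were -0.54 in MV-4-11, -1.94 in SKM-1 and -1.60 in Kasumi-1. Of 19 nucleotide synthesis genes 11 lay above and none below. MYC itself had log2 differences of -1.15 in MV-4-11, -5.80 in SKM-1 and -3.06 in Kasumi-1, a difference of 3.28 ± 0.21 (SE; limma adjusted p = 8.11e-08), and its target NME1 differed by 3.03 ± 0.19.

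**Figure D4:**
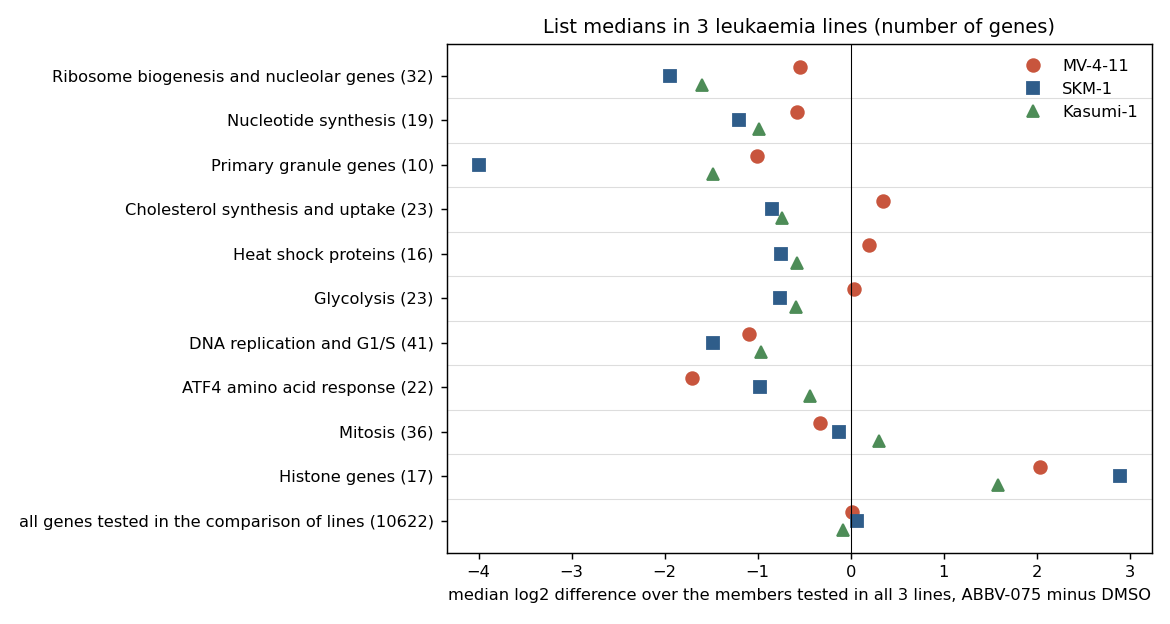
Median log2 difference between ABBV-075 and DMSO over the members of each list tested in the comparison of lines, for MV-4-11 (circles), SKM-1 (squares) and Kasumi-1 (triangles), with the number of genes beside each list. Cholesterol genes have a median of 0.35 in MV-4-11, -0.85 in SKM-1 and -0.74 in Kasumi-1, and the ATF4 list is lowest in MV-4-11 at -1.71.

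Sterol genes also stood apart. Of 23 cholesterol genes 19 lay above the mean of the other lines and none below, with medians of 0.35 in MV-4-11, -0.85 in SKM-1 and -0.74 in Kasumi-1. SQLE differed by 1.92 ± 0.13 and the desaturase SCD, which makes monounsaturated fatty acids, by 2.20 ± 0.13. Heat shock proteins lay above in 11 of 16 cases and glycolysis genes in 14 of 23, with 1 below in the glycolysis list. Against Kasumi-1 alone the heat shock count was 7, and the glycolysis count was 9 without ABBV-075 replicate 2 and 8 without DMSO replicate 1 of MV-4-11. Of 19 blood transcription factors 7 lay above and 2 below, and of 14 MLL fusion targets 4 lay above and 4 below. Against Kasumi-1 alone these counts were 6 above and 4 below, and 2 above and 6 below. Among the genes above, SPI1 differed by 3.03 ± 0.29, LMO2, a blood progenitor cofactor, by 3.55 ± 0.26, and HOXA10 by 2.38 ± 0.15. MYB differed by 2.62 ± 0.15, but against Kasumi-1 alone its difference was -0.13 (limma adjusted p = 0.632). The granule proteases PRTN3 and ELANE, not called in MV-4-11, fell in both other lines, with log2 differences of -7.32 and -6.28 in SKM-1 and -3.17 and -1.65 in Kasumi-1, and the lines differed by 5.19 ± 0.41 and 4.27 ± 0.35.

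The ATF4 response list was deeper in MV-4-11, with 16 of 22 genes below the mean of the other lines and 2 above. Its medians were -1.71 in MV-4-11, -0.97 in SKM-1 and -0.44 in Kasumi-1. The lists of import and tRNA charging did not share this. Of 13 amino acid transporters 5 lay above and 3 below, and of 18 aminoacyl-tRNA synthetases 2 above and 4 below. Their median differences from the other lines were 0.07 and -0.13. DDIT3, a stress factor downstream of ATF4, fell in MV-4-11, at 12.1 and 14.3 FPKM with ABBV-075, against 45.8 and 48.04 FPKM with DMSO, and differed by -2.61 ± 0.25. Mitotic genes lay below in 12 of 36 cases and above in none, histone genes below in 10 of 17 and above in none. The mitotic count below was 6 without ABBV-075 replicate 2 or DMSO replicate 1 of MV-4-11, 8 without Kasumi-1 DMSO replicate 1, and 21 without SKM-1 DMSO replicate 2 or against Kasumi-1 alone. The histone count below was 3 against Kasumi-1 alone. CDKN1A, which rose in all of these lines, differed by -1.63 ± 0.23. Of 12 immediate early and AP-1 genes 4 lay below and 1 above, with medians of 0.70 in MV-4-11, 1.57 in SKM-1 and 0.72 in Kasumi-1. KLF6, JUN and ANXA1, taken from different lists, rose in both other lines and were not called higher in MV-4-11. KLF6 differed by -2.57 ± 0.21, JUN by -2.22 ± 0.17 and the phospholipid-binding ANXA1 by -3.34 ± 0.24. DUSP1, a MAPK phosphatase, differed by -2.47 ± 0.28. HEXIM1 rose in each line, with a difference of 0.07 ± 0.19 that was not called. The SKM-1 DMSO libraries stood further apart than any other pair, with a replicate SD of 0.661 on the log2 scale, and without SKM-1 DMSO replicate 1 the count below was 1903. Without ABBV-075 replicate 2 of MV-4-11 the counts were 1008 above and 777 below, without ABBV-075 replicate 1 there were 762 below, and without DMSO replicate 1 there were 674 below.

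**Figure D5:**
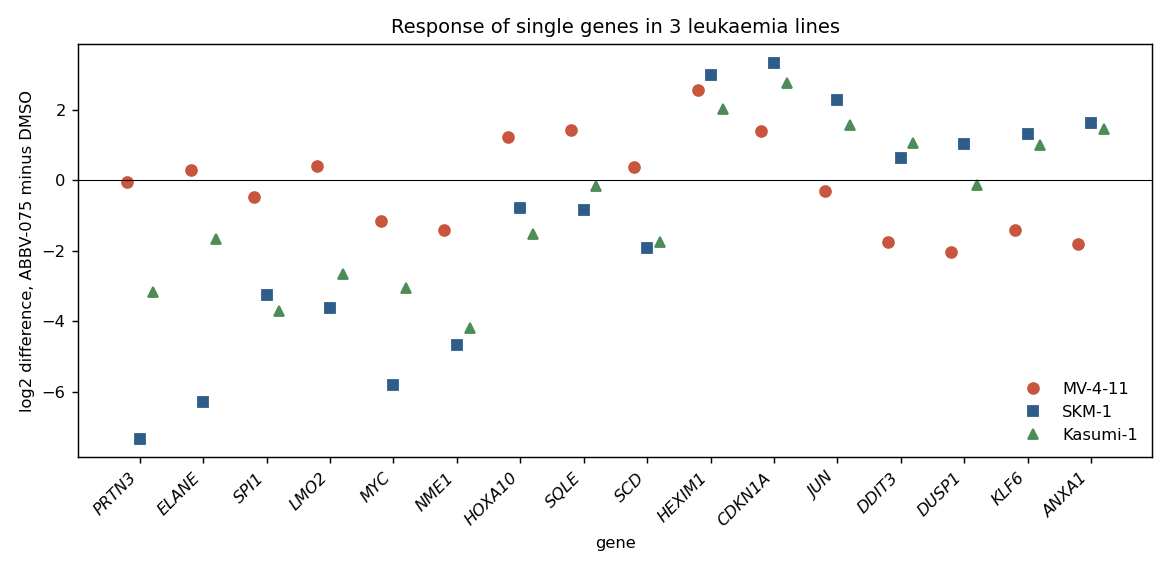
Log2 difference between ABBV-075 and DMSO for 16 genes in MV-4-11 (circles), SKM-1 (squares) and Kasumi-1 (triangles). PRTN3 to SCD are higher in MV-4-11 than in both other lines, HEXIM1 is close in all of them, and CDKN1A to ANXA1 are lower in MV-4-11, with ANXA1 at -1.80 in MV-4-11, 1.62 in SKM-1 and 1.45 in Kasumi-1.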

How the data were processed

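Poly-A selected RNA from 24 libraries (12 groups of 2) was sequenced, and the authors deposited 1 table of FPKM values per gene. The submitters' processing notes name DESeq2. Aligner, genome build and annotation: not given in the sources used here. FPKM holds no depth, so read depth is unknown and no counting interval is given.

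Values were analysed as log2(FPKM + 1) with limma 3.58.1 in R 4.3.3, fitted as 12 group means over all 24 libraries with 12 residual degrees of freedom, with trended and robust variance moderation. Tests were two-sided with Benjamini-Hochberg adjustment, with calls at 0.05. For single genes no exact permutation test was used, since 2 against 2 cannot reach below 0.333. Genes needed an FPKM of 1 or more in 2 of the 4 MV-4-11 libraries. The comparison of lines also needed this in SKM-1 and in Kasumi-1. The fit was tested on simulated data.

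Genes named in the text were a set of BET, MLL and survival genes, the 20 largest changes each way, up to 6 called and 2 uncalled members of each list, the 10 most abundant genes in DMSO, the 10 largest line differences each way, and the genes at the filter's edge. Exceptions are stated, and motif holders are named for the motif. Some genes that this rule allows are not reported here. The members and lists were chosen with earlier results of these data known. The alternatives tried were another pseudocount, filters, scalings, fewer libraries in the fit, plain variance moderation and leaving out each library.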

Additional observations from a re-analysis of the deposited data

Results flagged for a closer look

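The response of MV-4-11 differed from the mean response of SKM-1 and Kasumi-1, by the limma test of that difference, in 1531 genes that lay above and 1237 that lay below. Of the genes named, PRTN3 differed by 5.19 on the log2 scale, ELANE by 4.27, LMO2 by 3.55, MYC by 3.28, SPI1 and NME1 by 3.03 each, MYB by 2.62, HOXA10 by 2.38, SCD by 2.20 and SQLE by 1.92. Differences below were -3.34 for ANXA1, -2.61 for DDIT3, -2.57 for KLF6, -2.47 for DUSP1, -2.22 for JUN and -1.63 for CDKN1A.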

How the results depend on the processing

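No paired analysis was possible because the labels carry no replicate numbers. The replicate numbers used here follow the order of the samples in the series. With a pseudocount of 0.1 the genes called at least 2-fold higher numbered 871, against 562. More genes were called when other lines were left out of the fit. The 6 MV-4-11 libraries gave 3170 higher and 3394 lower. The 4 MV-4-11 ABBV-075 and DMSO libraries alone gave 3358 higher and 3600 lower, against 2520 and 2746 in the fit of all libraries. Leaving out 1 MV-4-11 library at a time gave 1784 to 1973 genes higher and 2033 to 2166 lower, the lone library being assumed to vary like the other groups. For the difference between lines, leaving out 1 library gave 1008 to 2267 genes above and 674 to 1903 below. The difference of MYB turned to -0.13 with Kasumi-1 alone in place of the mean, where its adjusted p by limma was 0.632. H3F3AP4 and XAGE1B were not called in a fit of the 6 MV-4-11 libraries (limma adjusted p = 0.156 and 0.0839). Not called in the fit of all libraries, but past the threshold in the same direction in a fit of the 4 MV-4-11 ABBV-075 and DMSO libraries alone, were ALDH18A1, CD33, ELANE, LMO2, MYB, NPM1, PTTG1, QARS, SPI1, TK1 and TYROBP. With all libraries scaled to the same FPKM sum, 54.0% of called genes were higher, against 47.9%. Of the genes named, 142 kept their direction and side of the threshold under every alternative run for them, and 20 crossed the threshold under at least 1.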
